A study of Mus musculus with 12 samples.

Results

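A set of 7 named genes for surface receptors of CD8 T cells and intraepithelial lymphocytes was followed in the terminal ileum of mice raised with or without microbes and with or without an early-life antibiotic. They are Cd8a and Cd8b1, which encode the alpha and beta chains of the CD8 co-receptor, Itgae, which encodes CD103, and Cd160, Cd244, Klrd1 and Klrk1, which encode receptors shared by natural killer (NK) cells and T cells. The genes were chosen by name, with no rule on their values but with earlier results of these data known. Of these 7 genes, 6 had values among the 556 genes measured, and Itgae was not analysed here. Cd8a, Klrd1, Cd160 and, by a narrow gap, Cd244 were highest in the 3 specific pathogen-free (SPF) control mice. Cd8a and Klrd1 passed the test against germ-free (GF) control mice, by 4.34-fold and 2.51-fold. Both also passed as lower in SPF mice exposed to the antibiotic, by 3.45-fold and 1.70-fold, the last of which did not hold in most other settings. Cd160 passed against GF control mice, by 1.68-fold, but not in all settings. No member passed the test between antibiotic-exposed and control GF mice.

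CD8 binds the class I major histocompatibility (MHC) molecule beside the T cell receptor and recruits the kinase Lck. Conventional cytotoxic T cells carry CD8 as a heterodimer of the alpha and beta chains, whereas many intraepithelial lymphocytes (IELs) of the small intestine carry a homodimer of the alpha chain, which is also found on some dendritic cells. IELs lie between the epithelial cells, are held there by CD103, and often carry receptors first known from NK cells, which read class I-like and stress-induced molecules on the epithelium.

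The mice were male C57BL/6 animals, aged 7 weeks by the labels, in 4 groups of 3. SPF control and GF control mice drank water alone, and SPF PAT and GF PAT mice received 1 pulsed antibiotic treatment (PAT) with the macrolide tylosin in the first weeks of life, while nursing, so that the exposure had ended long before the tissue was taken. SPF mice carry a microbiota free of defined pathogens, and GF mice carry none. RNA of terminal ileum tissue was measured by nCounter hybridization, which counts fluorescent probe barcodes without sequencing, and the values are log2 normalized counts. Mice are named here by group and by their number in the labels.

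Total counts ranged from 806043 to 923395 in SPF control mice and from 600308 to 681370 in the other 9 mice, and the normalized counts adjust for this. The panel's epithelial genes were abundant in every mouse, with a summed level of the 5 measured genes between 96093 and 195932 normalized counts. The identity of the CD8-expressing cells could not be read from these data. In RNA of a whole tissue, fewer cells of a type and less RNA per cell cannot be told apart, and this holds for every difference given here. Neither litters nor assay batches are given in the labels. The paper states that dams were assigned to treatment together with their litters, so mice of a group may be littermates. The p-values measure the spread between these mice and not between litters. By the paper, SPF litters came from purchased breeders and GF mice from a GF colony bred at the authors' centre. Colony and microbiota therefore cannot be told apart in differences between SPF and GF mice.

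Cd8a had the largest differences of the 6 genes in both comparisons with SPF control mice. Its counts were 281, 322 and 278 in SPF control mice 8, 7 and 2, and 39, 56 and 117 in SPF PAT mice 27, 26 and 21. They were 39, 45 and 80 in GF control mice 39, 38 and 37, and 60, 69 and 103 in GF PAT mice 43, 42 and 41. The 3 SPF control mice lay above the other 9, and the other 3 groups overlapped one another. On the log2 scale the level was 7.91 ± 0.08 in SPF control, 6.13 ± 0.62 in SPF PAT, 5.80 ± 0.53 in GF control and 6.23 ± 0.31 in the GF PAT group (mean ± SD, n = 3 each). SPF control mice were thus 4.34-fold higher than GF control mice, a log2 difference of 2.12 (standard error 0.34, 95% interval 1.37 to 2.87, limma adjusted p = 0.00116). SPF PAT mice were 3.45-fold lower than SPF control mice, a log2 difference of -1.79 (standard error 0.34, 95% interval -2.54 to -1.04, adjusted p = 0.00545). GF PAT minus GF control was 0.44 (95% interval -0.32 to 1.19, adjusted p = 0.693). The PAT effect in SPF mice minus that in GF mice, tested directly, was -2.22 (standard error 0.48, adjusted p = 0.0167). These 3 calls on Cd8a held under every alternative run on them, including the omission of any single mouse and median centring, where the differences were 1.68, -1.43 and -1.68.

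Cd8b1, the beta chain gene, gave few counts. They were 18, 23 and 14 in SPF control mice 8, 7 and 2, and 6, 4 and 8 in SPF PAT mice 27, 26 and 21. They were 8, 2 and 12 in GF control mice 39, 38 and 37, and 8, 7 and 15 in GF PAT mice 43, 42 and 41. The SPF control and SPF PAT mice did not overlap, whereas GF control mouse 37 reached the range of the SPF control mice after normalization. A count of 2, as in GF control mouse 38, has an exact 95% Poisson interval of 0.242 to 7.23, which covers counting error only. The log2 level was 3.89 ± 0.32 in SPF control, 2.67 ± 0.37 in SPF PAT, 2.62 ± 1.21 in GF control and 3.24 ± 0.52 in the GF PAT group (mean ± SD, n = 3 each). It differed by 1.26 between SPF control and GF control mice (95% interval 0.08 to 2.45, adjusted p = 0.0798) and by -1.22 between SPF PAT and SPF control mice (95% interval -2.40 to -0.04, adjusted p = 0.111). Neither passed the threshold of 0.05. GF PAT minus GF control was 0.61 (95% interval -0.57 to 1.79, adjusted p = 0.693). The PAT effect in SPF mice minus that in GF mice was -1.83 (95% interval -3.505 to -0.157), which did not pass (adjusted p = 0.106). The SD within a group averaged 0.61 log2 units for Cd8b1, against 0.27 for the median gene and 0.39 for Cd8a. Single mice and the fit decided the side of the threshold. With only the 2 groups compared, the second difference had an adjusted p of 0.0420. Without GF control mouse 37 the first difference was 1.75 (adjusted p = 0.0212). Without GF control mouse 38 the first fell to 0.58, which did not pass, and the second had an adjusted p of 0.0251.

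**Figure D1:**
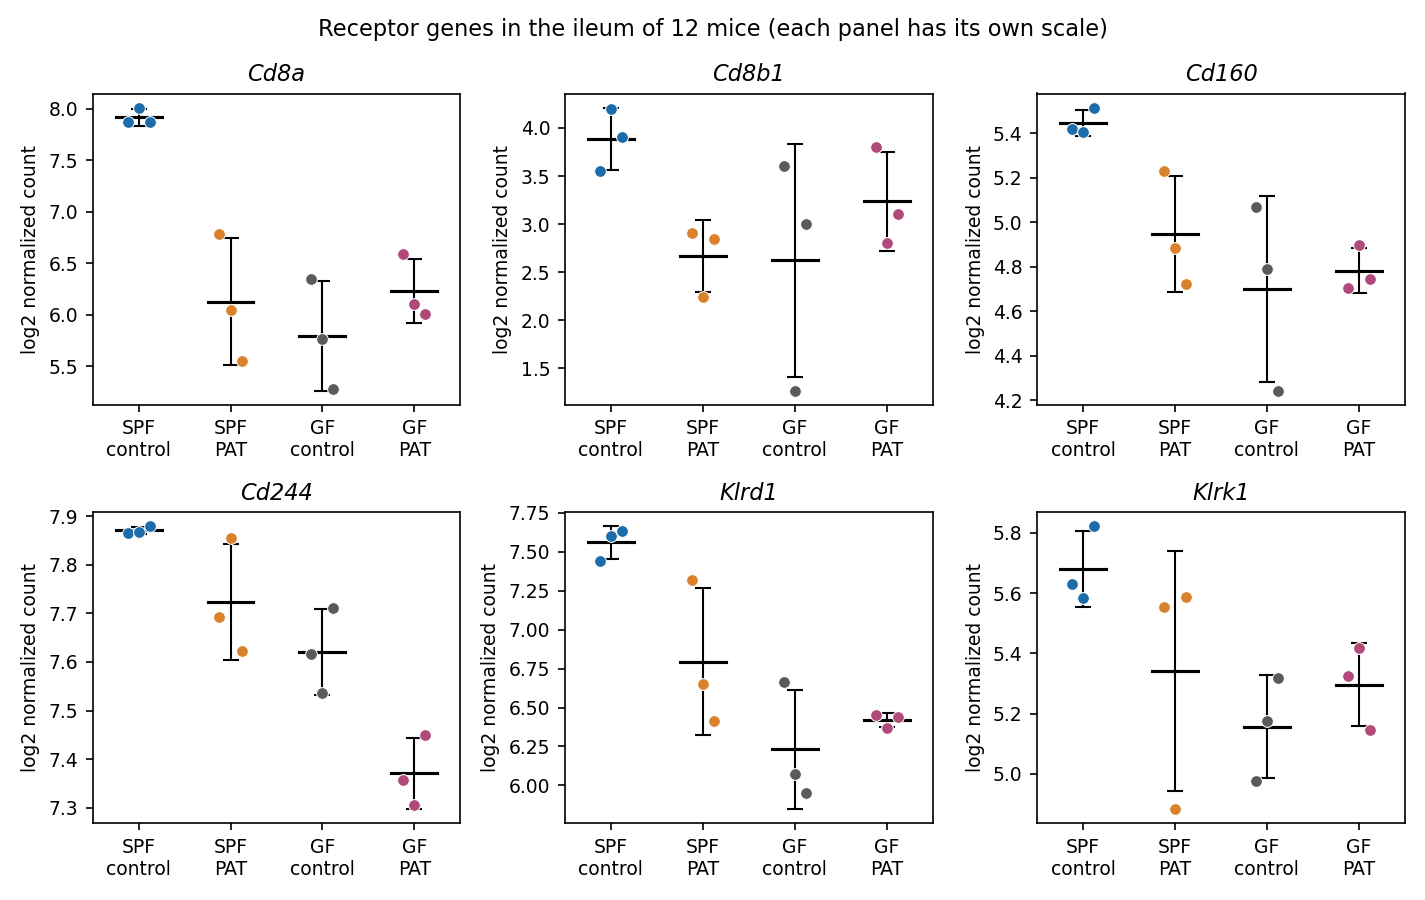
Log2 normalized counts of the 6 measured receptor genes in each of the 12 mice, by group (horizontal axis), with the mean as a bar and the SD as whiskers (n = 3); each panel has its own vertical scale. For Cd8a the SPF control mice lie at 7.87 to 8.01 and the other 9 mice at 5.28 to 6.78, and for Cd244 the GF PAT mice are lowest, at 7.31 to 7.45.

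The alpha and beta chains were compared within each mouse as log2 Cd8a minus log2 Cd8b1, in which the normalization of a mouse cancels. The size of this value depends on the 2 probes, so it was compared only between groups. It was 3.96, 3.81 and 4.31 in SPF control mice 8, 7 and 2, and 2.70, 3.81 and 3.87 in SPF PAT mice 27, 26 and 21. It was 2.29, 4.49 and 2.74 in GF control mice 39, 38 and 37, and 2.91, 3.30 and 2.78 in GF PAT mice 43, 42 and 41. The SPF control mice lay above all 3 GF PAT mice, but GF control mouse 38, with its 2 counts of Cd8b1, had the highest value of all. The means were 4.03 ± 0.26 in SPF control, 3.46 ± 0.66 in SPF PAT, 3.17 ± 1.17 in GF control and 2.996 ± 0.27 in the GF PAT group (SD, n = 3 each).

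No difference in this balance passed the test with all mice. An exact permutation test over the 4 groups, with 369600 relabellings, gave F = 1.27 and p = 0.344. Between SPF control and GF control mice the balance differed by 0.86 (95% interval -0.31 to 2.03, two-sided exact permutation p = 0.4, adjusted over 3 comparisons 0.6). Between SPF PAT and SPF control mice it differed by -0.57 (95% interval -1.74 to 0.60, exact permutation p = 0.3, adjusted 0.6). On log2 of the normalized count plus 1 this difference was -0.67 (exact permutation p = 0.1), and without SPF PAT mouse 27 it was -0.19. For GF PAT against GF control it differed by -0.18 (95% interval -1.34 to 0.99, exact permutation p = 1). With 3 mice against 3 the smallest possible p is 0.1, and the intervals include shifts of the balance by more than 1 log2 unit. The result over the 4 groups rested on 1 mouse: without GF control mouse 38, F was 5.95 (exact permutation p = 0.0228), and SPF control minus GF control was 1.52 (exact permutation p = 0.1, the smallest that 3 mice against 2 allow). Without GF control mouse 39 the latter was 0.41.

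Expressed as a share, Cd8b1 gave 5.83% ± 0.95 of the counts of both chains in SPF control, 8.80% ± 3.93 in SPF PAT, 11.4% ± 6.53 in GF control and 11.2% ± 1.81 in the GF PAT group (mean ± SD, n = 3 each). The share of single mice ran from 4.26% in GF control mouse 38 (exact Clopper-Pearson 95% interval 0.52 to 14.5%) to 17.0% in GF control mouse 39 (7.65 to 30.8%). Both extremes fell in the same group, and their intervals overlapped. Control probes were not analysed here, so Cd8b1 was not shown to lie above background. Its shares and the balance of the chains carry this limit.

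**Figure D2:**
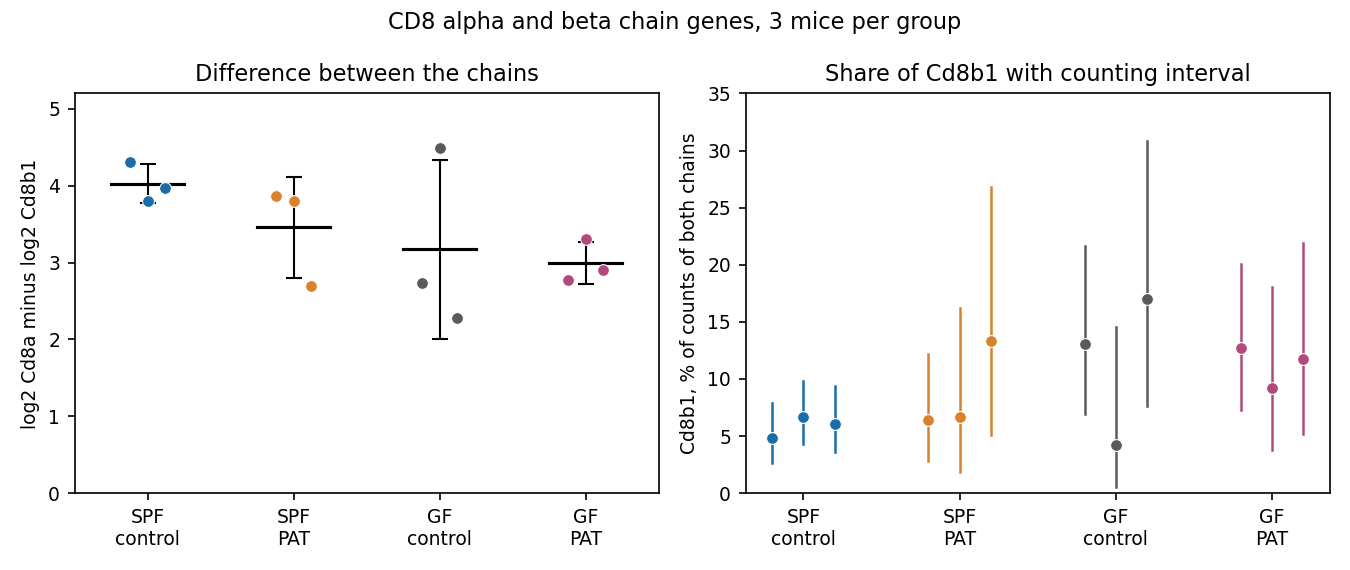
Left, log2 Cd8a minus log2 Cd8b1 in each mouse by group, with mean (bar) and SD (whiskers, n = 3). Right, Cd8b1 as a percentage of the counts of both chain genes, with the exact 95% counting interval of each mouse; the 3 SPF control mice lie at 4.80 to 6.67% and the widest spread is in GF control mice, at 4.26 to 17.0%.

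Klrd1 encodes CD94, a lectin-like chain that pairs with NKG2 proteins to read the class I-like molecule Qa-1. Its counts were 239, 243 and 207 in SPF control mice 8, 7 and 2, and 71, 85 and 170 in SPF PAT mice 27, 26 and 21. They were 62, 56 and 100 in GF control mice 39, 38 and 37, and 81, 83 and 94 in GF PAT mice 43, 42 and 41. As for Cd8a, the SPF control mice lay above the other 9, and SPF PAT mouse 21 and GF control mouse 37 were the highest of their groups. The log2 level was 7.56 ± 0.10 in SPF control, 6.79 ± 0.47 in SPF PAT, 6.23 ± 0.38 in GF control and 6.42 ± 0.05 in the GF PAT group (mean ± SD, n = 3 each). SPF control mice were 2.51-fold higher than GF control mice, a log2 difference of 1.33 (standard error 0.24, adjusted p = 0.00251), and this call held in all 22 alternatives. The difference was smaller with median centring, at 0.89, and with quantile normalization, at 0.81. SPF PAT mice were 1.70-fold lower than SPF control mice, a log2 difference of -0.77 (standard error 0.24, adjusted p = 0.0440). The second call was lost in 15 of 22 alternatives, among them the omission of any 1 of 10 mice, where the adjusted p reached 0.160 without SPF PAT mouse 27. It held without SPF PAT mouse 21 or GF control mouse 37. The difference between SPF PAT and SPF control mice was -0.41 with median centring and -0.37 with quantile normalization. GF PAT minus GF control was 0.19 (adjusted p = 0.745), and the difference between the PAT effects was -0.95 (adjusted p = 0.0743).

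Cd160 encodes a receptor that is anchored to the membrane by a lipid, is abundant on IELs, and binds the ligand HVEM and class I molecules. Its counts were 55, 53 and 51 in SPF control mice 8, 7 and 2, and 22, 25 and 40 in SPF PAT mice 27, 26 and 21. They were 19, 23 and 33 in GF control mice 39, 38 and 37, and 25, 30 and 28 in GF PAT mice 43, 42 and 41. The SPF control mice again lay above all others, with the same 2 mice, 21 and 37, nearest to them. SPF control mice were 1.68-fold higher than GF control mice, a log2 difference of 0.75 (standard error 0.21, adjusted p = 0.0162). That call was lost with Tukey HSD (adjusted p = 0.0893), with only the 2 groups compared (0.0526), and with median centring and quantile normalization, where the difference was 0.31 and 0.14. The difference between SPF PAT and SPF control mice was -0.50 (adjusted p = 0.0959), and GF PAT minus GF control was 0.08 (adjusted p = 0.896).

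Klrk1 encodes NKG2D, an activating receptor for stress-induced ligands. Its counts were 68, 60 and 59 in SPF control mice 8, 7 and 2, and 40, 25 and 50 in SPF PAT mice 27, 26 and 21. They were 40, 30 and 31 in GF control mice 39, 38 and 37, and 33, 43 and 43 in GF PAT mice 43, 42 and 41. After normalization the SPF control mice did not overlap the GF mice, but SPF PAT mouse 27 reached their range. The difference was 0.52 between SPF control and GF control mice (95% interval 0.09 to 0.95, adjusted p = 0.0533), -0.34 between SPF PAT and SPF control mice (adjusted p = 0.214) and 0.14 for GF PAT minus GF control (adjusted p = 0.758). None passed the threshold. The first passed in 4 of 22 alternatives, namely the filter at a mean normalized count of 20 (adjusted p = 0.0416), only the 2 groups compared (adjusted p = 0.0459), and the omission of SPF PAT mouse 26 or of SPF PAT mouse 21. With quantile normalization the signs of all 3 turned, and with median centring those of the last 2.

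Cd244 encodes 2B4, a receptor for CD48 on neighbouring blood cells. It had the tightest groups of the 6 genes, with a mean SD of 0.07 log2 units. Its counts were 283, 292 and 278 in SPF control mice 8, 7 and 2, and 164, 196 and 220 in SPF PAT mice 27, 26 and 21. They were 210, 154 and 193 in GF control mice 39, 38 and 37, and 163, 159 and 176 in GF PAT mice 43, 42 and 41. The log2 level was 7.87 ± 0.007 in SPF control, 7.72 ± 0.12 in SPF PAT, 7.62 ± 0.09 in GF control and 7.37 ± 0.07 in the GF PAT group (mean ± SD, n = 3 each). Cd244 was the only member whose 3 GF PAT mice lay below the 3 GF control mice (7.55% of all genes were lower without overlap), with a difference of -0.25 (95% interval -0.48 to -0.02), but the test did not pass (adjusted p = 0.693). SPF control minus GF control was 0.25 (adjusted p = 0.0751) and SPF PAT minus SPF control was -0.15 (adjusted p = 0.288), without overlap between the groups in either. Both of these signs turned with median centring and with quantile normalization. SPF PAT mice lay above GF PAT mice, again without overlap (8.45% of all genes were higher so), and differed by 0.35 (95% interval 0.12 to 0.58, adjusted p = 0.164).

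Read across the members, 3 of 6 (Cd8a, Klrd1 and Cd160) passed the test between SPF control and GF control mice, all higher in SPF control mice, where 42.1% of all 556 genes passed and 19.4% passed as higher. All 6 differences were above 0, with a median of 1.004 against 0.08 over all genes. In 5 of the 6 genes the groups did not overlap, where 25.4% of all genes were higher without overlap. Between SPF PAT and SPF control mice 2 of 6 members (Cd8a and Klrd1) passed, both lower in SPF PAT mice, where 26.3% of all genes passed and 12.2% passed as lower. All 6 differences were below 0, with a median of -0.63 against -0.02 over all genes. In 5 of the 6 genes the groups did not overlap, Cd244 by a gap within counting error, where 18.2% of all genes were lower without overlap. Both comparisons use the same SPF control mice, so the second set of signs is not independent of the first. The signs of Cd244 and Klrk1 depend on the scaling, as given above. Centring each mouse on its median gene moved the median difference of all genes from 0.08 to -0.36 in the first comparison and from -0.02 to 0.34 in the second, and the share of higher genes among those that passed from 46.2 to 25.2% and from 53.4 to 71.7%.

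In the GF mice 0 of 6 members passed between PAT and control, and 0% of all genes passed in limma. At an unadjusted p under 0.05 there was 1 member, Cd244, and none passed with Tukey HSD or voom. The difference between the PAT effects passed for 1 of 6 members, Cd8a, where 17.1% of all genes passed and 7.19% passed as lower. SPF PAT mice were also set against the GF groups. Against GF control mice 0 of 6 members passed, where 2.16% of all genes passed, and 1 member, Klrd1, had an unadjusted p under 0.05, with a difference of 0.56 (95% interval 0.02 to 1.11, adjusted p = 0.448). Against GF PAT mice 0 of 6 passed, where 1.44% of all genes passed, and Cd244 was the 1 member with an unadjusted p under 0.05. For Cd8a these differences were 0.33 (95% interval -0.42 to 1.08) and -0.11 (95% interval -0.86 to 0.65). No member passed these comparisons under any alternative.

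**Figure D3:**
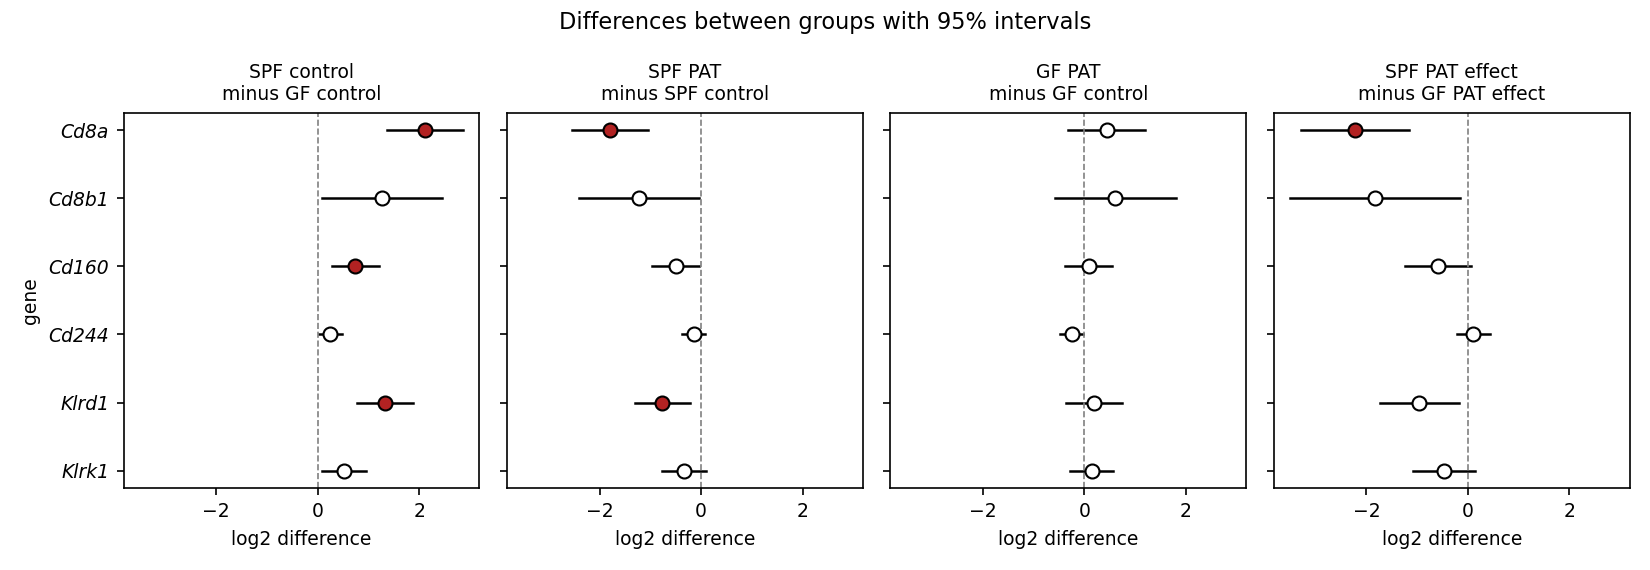
Log2 differences of the 6 genes (vertical axis) in 4 comparisons (panels) with 95% intervals from limma; filled circles have an adjusted p under 0.05 over all 556 genes. Cd8a is filled in 3 panels, at 2.12, -1.79 and -2.22, and no gene is filled in the panel of GF PAT minus GF control.

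The genes with profiles most like those of the CD8 chains were found by the root mean square difference of centred log2 profiles over the 12 mice, among genes with a mean normalized count of at least 20. The 5 nearest to Cd8a were H2-DMa (0.17), Cd74 (0.20), H2-Ab1 (0.21), H2-Aa (0.21) and Tap1 (0.24), of which the first 4 belong to MHC class II presentation. The 5 nearest to Cd8b1 lay farther off, at 0.45 to 0.47, and were Cd80, Cd226, Fasl, Cxcr6 and Cd48. Cd8a itself was at 0.69 from Cd8b1 and at 0.42 from Klrd1, and the closest pair of members was Cd160 and Klrd1 (0.26). This measure describes likeness in these 12 mice, which share the group differences. Cd8b1 had low counts, and the part of counting error in its distances was not tested.

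The 300 bases around a transcription start were read from RefSeq (mouse build GRCm38.p6) for 4 members, Cd8a, Cd160, Cd244 (as Cd244a) and Klrk1, with 250 bases before and 50 after the start, on the strand of the gene. They are shown because Runx3 and the T-box factor T-bet are known regulators of genes of cytotoxic lymphocytes, and because Cd8a and Cd160 carry results above. Capitals mark TGTGGTT, a Runx-type motif, or GGTGTGA, a T-box-type motif, each searched on both strands (AACCACA and TCACACC on the other strand). The 2 motifs share no match here, and negative positions count bases back from the start. The windows of Cd8a (chr6:71373177-71373476, + strand), Cd160 (2 starts, chr3:96814472-96814771 and chr3:96829302-96829601, - strand) and Klrk1 (chr6:129623815-129624114, - strand) read as follows.
Cd8a: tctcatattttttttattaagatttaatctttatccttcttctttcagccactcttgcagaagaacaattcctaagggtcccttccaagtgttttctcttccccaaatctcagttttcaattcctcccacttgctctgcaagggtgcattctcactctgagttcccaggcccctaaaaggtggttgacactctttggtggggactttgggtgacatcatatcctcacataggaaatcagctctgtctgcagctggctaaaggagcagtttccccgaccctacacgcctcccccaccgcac
Cd160 start 1: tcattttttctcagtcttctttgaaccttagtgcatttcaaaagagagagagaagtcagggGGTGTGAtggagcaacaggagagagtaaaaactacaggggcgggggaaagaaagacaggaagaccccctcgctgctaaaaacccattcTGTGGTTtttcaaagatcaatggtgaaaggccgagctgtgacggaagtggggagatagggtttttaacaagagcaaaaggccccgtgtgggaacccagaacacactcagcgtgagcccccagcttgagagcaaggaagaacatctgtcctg
Cd160 start 2: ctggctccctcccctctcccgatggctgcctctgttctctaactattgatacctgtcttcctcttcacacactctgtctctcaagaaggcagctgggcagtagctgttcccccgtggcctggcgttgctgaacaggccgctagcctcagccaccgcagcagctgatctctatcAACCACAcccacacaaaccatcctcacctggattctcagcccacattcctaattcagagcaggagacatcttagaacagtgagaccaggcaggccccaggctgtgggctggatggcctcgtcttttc
Klrk1: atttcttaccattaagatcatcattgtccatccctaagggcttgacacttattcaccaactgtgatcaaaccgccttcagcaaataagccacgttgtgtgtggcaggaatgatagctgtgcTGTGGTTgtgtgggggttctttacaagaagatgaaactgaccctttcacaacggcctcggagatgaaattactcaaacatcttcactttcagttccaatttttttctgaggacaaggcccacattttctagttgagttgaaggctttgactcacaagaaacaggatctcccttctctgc
The first Cd160 window holds TGTGGTT at position -101 and GGTGTGA at -189, the second holds AACCACA at -77, and the Klrk1 window holds TGTGGTT at -129. These letters are not in the windows of Cd8a and Cd244. Over all 32851 windows of the table, 5.27% hold the Runx-type motif and 3.98% the T-box-type motif. A match is a description of the sequence only. Of the factors, Runx3 was 1.46 log2 units higher in SPF control than in GF control mice (adjusted p = 0.00445), as was Tbx21, which encodes T-bet, by 0.48 (adjusted p = 0.0198); both were named after their values were seen.

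Ligands, partner chains and adaptors of the receptors formed a list of 25 genes, 12 of them measured. Between SPF control and GF control mice 3 passed as higher and 0 as lower, with a median difference of 0.22, where 42.1% of all genes passed and 19.4% passed as higher. Klrc1, which encodes the NKG2A partner of CD94, was higher by 0.54 (adjusted p = 0.00546; whether its probe separates it from the paralogs Klrc2 and Klrc3 was not checked), and Cd48, the ligand of Cd244, by 1.11 (adjusted p = 0.0228). The third was Lck, the kinase bound by CD8, at 1.70 (adjusted p = 0.0302). The paralogs Klrc2 and Klrc3, at means of 8.7 and 1.8 normalized counts, had the opposite sign to Klrc1, at -1.28 and -0.82 (adjusted p = 0.143 and 0.273). In SPF PAT minus SPF control mice the paralogs were 0.23 and 1.05 (adjusted p = 0.795 and 0.200). The class I genes B2m and H2-K1 had differences of 0.20 and -0.12 (adjusted p = 0.183 and 0.585) in SPF control minus GF control mice. Between SPF PAT and SPF control mice 0 were higher and 1 was lower, Klrc1, by -0.41 (adjusted p = 0.0310), where 26.3% of all genes passed. Lck, B2m, H2-K1, Klrc2, Klrc3 and the second Klrc1 value were named after their values were seen.

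Factors, cytokines and homing receptors of CD8 cells and IELs moved in both directions. Of 21 measured genes out of 24, 6 were higher and 8 lower in SPF control than in GF control mice, and 7 were higher and 6 lower in SPF PAT than in SPF control mice. Of all genes, 42.1% passed in the first of these comparisons and 26.3% in the second. Il15, the cytokine that sustains IELs, was lower in SPF control mice than in GF control, at -1.47 (adjusted p = 6.74e-05), and was 1.11 higher in SPF PAT than in SPF control mice (adjusted p = 0.00082). Ccl25, the chemokine of the small intestinal epithelium, behaved in the same direction, with -1.08 (adjusted p = 0.000336) and 0.79 (adjusted p = 0.00445). Its receptor gene Ccr9, named after its values were seen, had the opposite signs, 1.53 (adjusted p = 0.000434) and -1.03 (adjusted p = 0.00703). The signs of Ccr9 were thus those of Cd8a, and those of Il15 and Ccl25 were opposite to them.

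In the cytotoxic effector and T cell receptor lists, most genes that passed had the sign of Cd8a. Of 10 measured effectors, 6 were higher and 0 lower in SPF control than in GF control mice, with a median difference of 1.24, and 0 were higher and 6 lower in SPF PAT than in SPF control mice (median -1.01). Of all genes, 19.4% passed as higher in the first comparison and 12.2% as lower in the second. The 2 with the smallest p were Gzmb, encoding granzyme B, at 3.48 (adjusted p = 1.64e-05), and Ccl5, encoding a chemokine of activated T cells, at 2.87 (adjusted p = 0.000156). Of 11 measured T cell genes, 7 were higher and 0 lower in the first comparison (median 1.86), and 1 was higher and 7 lower in the second (median -1.38). The 1 of opposite sign to Cd8a was Lcp2, at 0.48 (adjusted p = 0.0169), named after its values were seen. Cd7 was higher by 1.72 (adjusted p = 0.000336) and Zap70, encoding a kinase of the T cell receptor, by 1.54 (adjusted p = 0.00355). The summed level of the T cell genes was 1178 to 1929 normalized counts in SPF control, 419 to 1122 in SPF PAT, 346 to 780 in GF control and 555 to 967 in GF PAT mice, and none of them was at 0 in all mice. The part of T cell number in the Cd8a difference was not tested.

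The lists of other cells are set beside the 42.1% of all genes that passed in SPF control minus GF control mice and the 26.3% that passed in SPF PAT minus SPF control mice. In the CD4 T cell list 4 of 9 genes were higher and 0 lower in SPF control than in GF control mice, and 1 was higher and 2 lower in SPF PAT than in SPF control mice. Ctla4 was higher by 1.90 (adjusted p = 0.00335) and Il17a by 1.68 (adjusted p = 0.00531) in the first comparison. In the NK and innate lymphoid list 2 of 11 were higher and 2 lower in the first comparison, and 2 higher and 1 lower in the second. Its genes with the smallest p, Kit at -0.80 (adjusted p = 0.00289) and Ncam1 at -0.85 (adjusted p = 0.00735), were lower in SPF control than in GF control mice. The 2 that were higher, Cd226 at 1.38 (adjusted p = 0.0107) and Klrb1 at 1.12 (adjusted p = 0.0243, named after its values were seen), had the sign of Klrd1, as did 7 of the 11 differences, with a median of 0.40. The summed level of the list, to which Kit and Ncam1 contribute most, was 584 to 686 normalized counts in SPF control, 773 to 813 in SPF PAT, 753 to 935 in GF control and 628 to 833 in GF PAT mice. Whether the RNA of Kit and Ncam1 came from NK or innate lymphoid cells was not tested, so this sum is not a measure of those cells. The part of NK cells in the Klrd1 difference was not tested.

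Dendritic cells, of which some carry the CD8 alpha chain, were represented by 6 measured genes of 10, and 1 was higher and 1 lower in each of these comparisons. Irf8 was higher by 0.65 (adjusted p = 0.000932) and Clec4a4 had a difference of -0.58 (adjusted p = 0.0229) in SPF control against GF control mice. Xcr1, at 0.98 (adjusted p = 0.0820), and Batf3, at 0.05 (adjusted p = 0.837), did not pass there. In SPF PAT minus SPF control mice they were -1.01 (adjusted p = 0.0959) and 0.03 (adjusted p = 0.907). Both were named after their values were seen. The summed level of the list was 2126 to 3016 normalized counts in SPF control, 1560 to 2536 in SPF PAT, 1661 to 2007 in GF control and 1698 to 2414 in GF PAT mice. This sum rests mostly on Irf8 and Cd83, with means of 947 and 844 normalized counts, and the cells that gave their RNA were not tested. Cd83 was named after its values were seen. The part of dendritic cells in the Cd8a difference was not tested. In the macrophage list 2 of 7 genes were higher and 0 lower in SPF control mice, Itgam by 1.26 (adjusted p = 0.00629) and Ccr2 by 0.60 (adjusted p = 0.0308), and 1 was lower in SPF PAT mice. In the epithelial list 2 of 5 genes were higher and 1 lower in SPF control mice, with Cd9 at -0.92 (adjusted p = 0.00355) and Il18 at 1.30 (adjusted p = 0.0153), and 1 was higher in SPF PAT mice.

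B cell genes varied widely within every group. Their summed level was 1391 to 7609 normalized counts in SPF control, 941 to 6537 in SPF PAT, 986 to 4032 in GF control and 2265 to 6483 in GF PAT mice. All 11 were measured and 1, Blnk, passed in the first comparison, at 0.42 (adjusted p = 0.0397), followed by Btk at 1.17 (adjusted p = 0.161). In the second comparison 1 was lower in SPF PAT mice. All 11 differences were above 0 in the first comparison (median 1.70), below 0 in the second (median -1.59) and above 0 in GF PAT minus GF control mice (median 2.08), so their signs were those of Cd8a in all 3. The part of B cells in the Cd8a difference was not tested. In GF PAT against GF control mice 0 genes passed in any of the 10 lists.

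**Figure D4:**
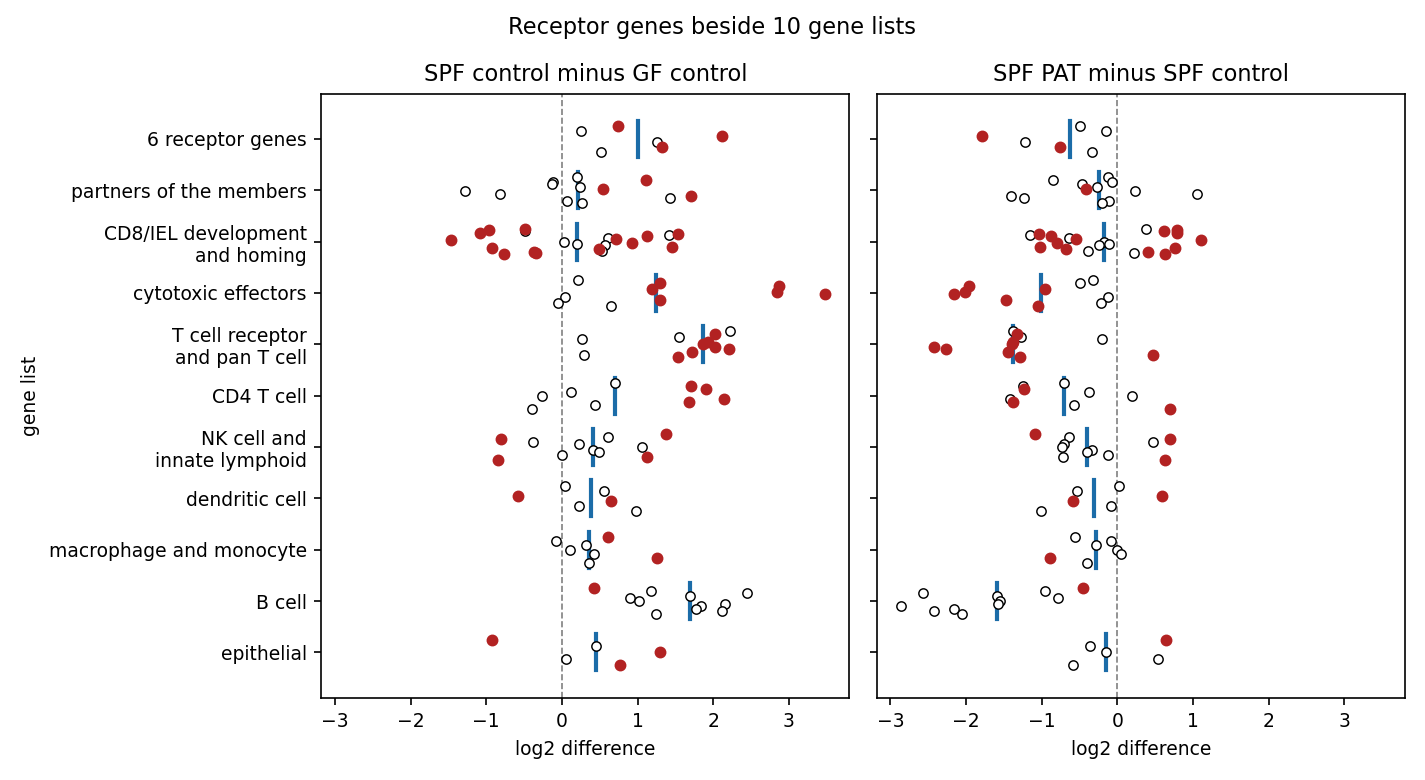
Log2 differences of the 6 receptor genes and of the measured genes of 10 lists in SPF control minus GF control (left) and SPF PAT minus SPF control (right) mice; filled points have an adjusted p under 0.05 over all 556 genes and the vertical bars are medians. The medians of the receptor genes are 1.004 and -0.63, and those of the T cell list 1.86 and -1.38.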

How the data were processed

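RNA of the terminal ileum of 12 mice, 3 per group, was measured with the nCounter GX mouse immunology panel. The authors normalized the counts with DESeq2 and deposited log2 values, 1 per gene and mouse, and no read alignment or genome build applies. The table held values for 556 genes, and 28 further entries were without values. Dividing out 1 size factor per mouse gave whole counts within 0.01, and a count of 0 is written as 0, which no measured member had. Total counts per mouse were 600308 to 923395, and a low count limits the precision of a gene.

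Groups were taken from the labels. The log2 values were fitted with 1 mean per group over all 12 mice in limma 3.58.1 (R 4.3.3), with Benjamini-Hochberg adjustment over the 556 genes and 0.05 as the threshold. Fold changes are on the log2 normalized count scale, without a pseudocount. The balance of Cd8a and Cd8b1 was tested with exact permutation tests (Python 3.11.15, scipy 1.17.1), two-sided between groups, and its 95% intervals came from limma on that difference. The scripts were checked on simulated data.

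The members and the gene lists were chosen with earlier results of these data known. The genes named are all members, for each list the 2 measured genes with the smallest p in SPF control minus GF control mice, and for Cd8a and Cd8b1 the 5 genes with the most similar profiles; exceptions are stated where they occur. Alternatives were the methods' Tukey HSD, limma with an intensity trend or robust variance, quantile normalization, median centring, scaling to the total count, a filter at a mean normalized count of 20, log2 of the normalized count plus 1, voom on the recovered counts, a fit of only the 2 groups compared, the omission of each mouse, and a smallest absolute log2 difference of 1. Itgae, reference genes and control probes were not analysed here. Of the 6 measured members, 5 matched a RefSeq symbol and 1 an older name.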

Additional observations from a re-analysis of the deposited data

Results flagged for a closer look

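The difference between the PAT effect in SPF mice and that in GF mice, tested as such in limma, passed the threshold for 1 of 6 members, Cd8a, at -2.22 (adjusted p = 0.0167), where 17.1% of all genes passed. In SPF mice the PAT difference of Cd8a was -1.79 without overlap between the groups, and in GF mice it was 0.44 with overlap. Of the 37 other genes that the text names and for which it was examined, 19 passed and 18 did not. Most were named for a small p in SPF control minus GF control mice or for likeness to Cd8a or Cd8b1, and this difference uses the same mice, so their share cannot be set against that of all genes. Among the partner, development, effector and marker genes that the text names, the same difference was negative and passed for Gzmb (-2.52), Ccl5 (-2.05), Il17a (-1.92), Zap70 (-1.73), Cd7 (-1.56), Ccr9 (-1.29) and Irf8 (-0.55). It was also negative and passed for the 5 genes with profiles nearest to Cd8a, namely Cd74 (-2.23), H2-DMa (-2.14), H2-Aa (-2.05), H2-Ab1 (-2.02) and Tap1 (-1.82), and for Fasl (-1.17) and Cxcr6 (-1.12), near Cd8b1, all chosen for their likeness over the same mice. It was positive and passed for Il15 (1.07), Kit (1.03), Ccl25 (1.01), Cd9 (1.004) and Clec4a4 (1.001). Ccr9 was added after its values were seen. Il17a had a mean of 11.1 normalized counts, where counting error is large.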

How the results depend on the processing

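Of the comparisons of members that passed, those of Cd8a with SPF control mice, the difference between its PAT effects, and Klrd1 in SPF control minus GF control mice kept their direction and call in all alternatives run for them. The count of members past the threshold in SPF PAT minus SPF control mice was 1 in place of 2, with Cd8a left and Klrd1 lost, under Tukey HSD, median centring, quantile normalization, scaling to the total count and a minimum absolute log2 difference of 1. With only the 2 groups compared it stayed 2, with Cd8b1 in place of Klrd1, and in SPF control minus GF control mice it stayed 3, with Klrk1 in place of Cd160. In the latter comparison the count was 2, without Cd160, under Tukey HSD, median centring, quantile normalization and a minimum absolute log2 difference of 1. It was 4, with Klrk1 added, under the filter at a mean normalized count of 20. With single mice left out the count ran from 1 to 3 in SPF PAT minus SPF control mice, from 3 to 4 in SPF control minus GF control mice and from 1 to 3 for the difference between the PAT effects, the last with 2 (Cd8a and Klrd1) without SPF PAT mouse 21 and 3 (also Cd8b1) without GF control mouse 37. The balance of Cd8a and Cd8b1 in GF PAT minus GF control mice ran from -0.62 to 0.48 (reversed without GF control mouse 38), its difference between the PAT effects from -1.05 to 0.050 (reversed without GF control mouse 39), and F over the 4 groups from 0.67 to 5.95.

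Signs turned as follows. With median centring, Cd244 was -0.19 and 0.21 in SPF control minus GF control and SPF PAT minus SPF control mice, and Klrk1 was 0.018 in the latter. In GF PAT minus GF control mice Cd160 was -0.11, Klrd1 -0.0001 and Klrk1 -0.050, the difference between the PAT effects of Klrk1 was 0.068, and Cd8b1 was -0.043 in SPF PAT minus GF control mice. With quantile normalization, Cd244 was -0.10 and 0.11 and Klrk1 was -0.13 and 0.10 in the first 2 comparisons. In GF PAT minus GF control mice Cd160 was -0.29, Klrd1 -0.14 and Klrk1 -0.26. The differences between the PAT effects were 0.23 for Cd160 and 0.36 for Klrk1, Klrk1 was -0.029 in SPF PAT minus GF control mice, and Cd8a was 0.089 in SPF PAT minus GF PAT mice. Cd8b1 in SPF PAT minus GF control mice was -0.0044 with log2 of the normalized count plus 1 and -0.026 with voom, and Klrk1 in SPF PAT minus GF PAT mice was -0.048 with scaling to the total count. With single mice left out, these ranges crossed 0: Cd160 (-0.15 to 0.26) and Cd8b1 (-0.067 to 1.10) in GF PAT minus GF control mice, Cd8b1 (-0.64 to 0.53) in SPF PAT minus GF control mice, and Cd8a (-0.43 to 0.18) and Klrk1 (-0.077 to 0.27) in SPF PAT minus GF PAT mice. None of these values passed the threshold, and the cause of the turns was not tested. The share of higher genes among all that passed was 34.4% with quantile normalization and 38.9% with scaling to the total count in SPF control minus GF control mice, and 64.7 and 70.3% in SPF PAT minus SPF control mice. With 3 mice per group and counts of 2 to 23, a difference in Cd8b1 or in the balance of the chains would have to be large to be detected. No paired analysis was run, because the groups are different mice, each measured once, and the labels give no pairing between them. The replicate numbers used here only follow accession order.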
